A study of Malus domestica with 18 samples.

Results

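Hsp90, Hsp70a and Hsp70b, genes of the Hsp90 and Hsp70 chaperone families, are 3 of the 18 target genes whose transcripts were measured by RT-qPCR in embryonic axes of apple (Malus domestica) seeds, cultivar Antonówka per the study's methods. They were taken by their gene names, a choice made with earlier results of these data known, and all 3 had a value in each of the 18 samples. Seeds were kept in moist sand at 33 °C for 7, 14 or 21 days (accelerated aging), the embryos were isolated, and the axes were collected after 48 h of culture. NO-treated embryos were exposed before culture for 3 h to vapors of acidified nitrite (14.5 mM NaNO2 in 0.2 M HCl), and control embryos came from seeds of the same aging time and were not fumigated. The groups were NO 7d, Control 7d, NO 14d, Control 14d, NO 21d and Control 21d, each with 3 replicates. No group of unaged seeds was analysed here, and the fumigated embryos are compared with embryos that received no vapor, so NO and the other vapors of the nitrite solution cannot be told apart. Each sample was a pool of axes, in which fewer cells of a type and less transcript per cell cannot be told apart. None of the 20 measured genes is a defining marker of the axis. The 4 Lea genes, which stand for late embryo transcripts, were measured in all samples.

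Hsp70 proteins bind exposed hydrophobic stretches of unfolded proteins and release them in an ATP-dependent cycle that J-domain proteins and nucleotide exchange factors drive. Hsp90 proteins act later, on partly folded clients such as kinases and receptors, which they often receive from Hsp70. In seeds, heat shock proteins build up during late maturation, and in the dry and imbibed embryo they are known as part of the protection and repair of proteins. By the closest Arabidopsis protein that the study lists, Hsp90 corresponds to Heat shock protein 90-1, in Arabidopsis a heat-inducible cytosolic Hsp90, and Hsp70b to Heat shock 70 kDa protein 1, in Arabidopsis an abundant cytosolic Hsp70. Hsp70a corresponds to Heat shock 70 kDa protein 16, which in Arabidopsis belongs to the Hsp110 branch of the family, whose members act as exchange factors of other Hsp70 proteins. The names Hsp70a and Hsp70b thus stand for different branches and not for a pair of close copies.

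The primers are shown because the transcripts are defined by them alone. They are given 5′ to 3′, the 3 members first and then the reference genes Sar1 (a small GTPase of vesicle transport) and Pdi (a protein disulfide isomerase), against which the members were set.
Hsp90 forward: ttccaggccgagatcaac
Hsp90 reverse: gaaagatctccttgttgctgta
Hsp70a forward: ttgtcgggtcagggtctag
Hsp70a reverse: agcattgcacattgaagagcg
Hsp70b forward: atcaccaacgacaagggca
Hsp70b reverse: ctttgcctccaccttcttct
Sar1 forward: ttgatttgggcgggcatcagattg
Sar1 reverse: tcatcagagaggagagcatccagc
Pdi forward: tgctgtacacagccaacgat
Pdi reverse: catctttagcggcgttatccttg
Between members, the longest run of bases that a primer shared with either primer of another member was 4 on the same strand and 6 on the opposite strand. The study lists 2 apple gene models for the Hsp90 pair, 5 for the Hsp70a pair and 1 for the Hsp70b pair, so transcripts of several gene copies may add up in the values of Hsp90 and Hsp70a. No genome was used here, and genomic positions of the primers are not given.

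The measured quantity was the quantification cycle, the cycle at which the fluorescence of the product passes a threshold, so that a higher cycle means less template. Cycles of the 20 genes ran from 19.8 to 30.8. Hsp90 was the steadiest of the 3 genes, with group means of 20.7 cycles in NO 7d and 20.6 in Control 7d, 20.2 in NO 14d and 20.5 in Control 14d, and 20.5 in NO 21d and 20.6 in Control 21d. Hsp70a lay at 24.4 cycles in NO 7d and 24.5 in Control 7d, 24.1 in NO 14d and 24.3 in Control 14d, and 25.0 in NO 21d and 24.2 in Control 21d. Hsp70b moved most. It lay at 19.8 ± 0.0855 cycles in NO 7d and 20.8 ± 0.0885 in Control 7d (SD, n = 3 each), at 21.7 in both groups of 14 days, and at 23.4 ± 0.078 in NO 21d and 20.9 ± 0.091 in Control 21d. Cycles of different genes were not compared as levels, because the primer pairs differ in amplification.

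**Figure D1:**
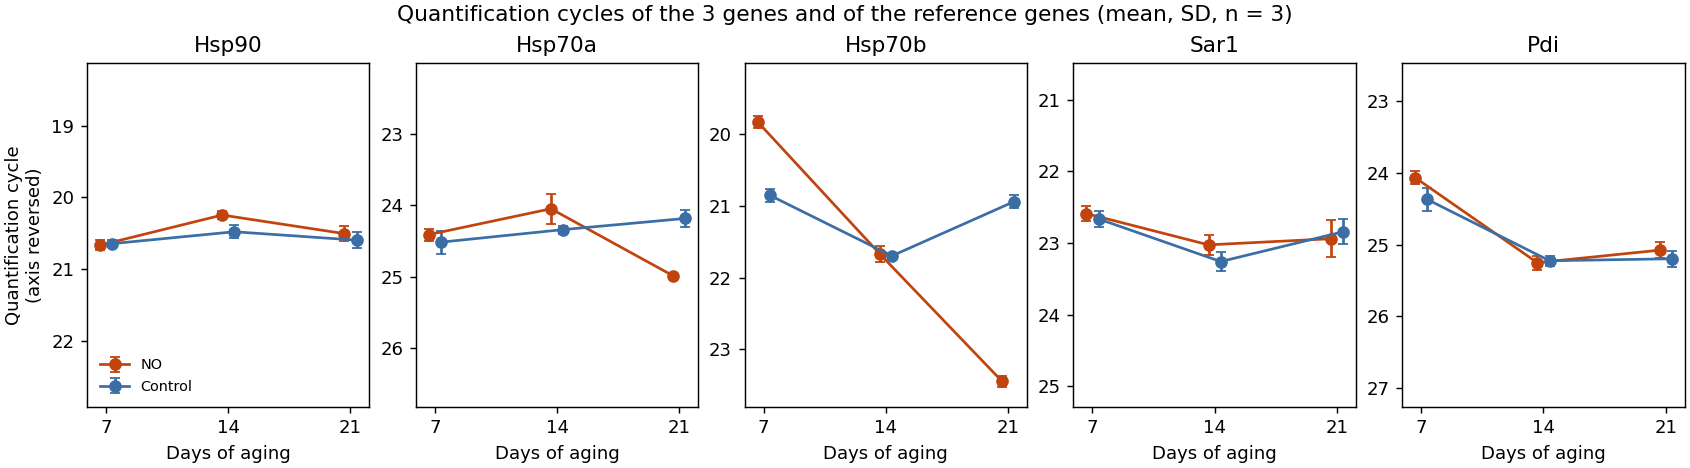
Mean quantification cycle (axis reversed, so that more template lies higher, and of the same length in each panel) against days of aging for Hsp90, Hsp70a, Hsp70b and the reference genes Sar1 and Pdi, in NO-treated and control axes. Bars are SD (n = 3). Hsp70b of NO-treated axes lies at 19.8, 21.7 and 23.4 cycles over the 3 aging times, while its control lies at 20.8, 21.7 and 20.9.

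Levels were computed from the cycles of a member minus the mean cycle of Sar1 and Pdi in the same sample, with 1 doubling per cycle, and set to 1 at the mean of Control 7d. The comparisons below use limma over all 18 samples and 18 target genes on the log2 scale, with Benjamini-Hochberg adjustment over the 18 genes and a threshold of 0.05.

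Hsp70b had the widest range of the 3 genes and opposite NO effects at the shortest and the longest aging. After 7 days it was higher in NO-treated axes, with levels of 1.85, 1.77 and 1.74, against 1.12, 0.92 and 0.975 in control axes. The groups did not overlap (log2 fold change 0.84 ± 0.13 standard error, limma adjusted p = 3.6e-06). After 14 days the levels were 0.908, 0.825 and 0.887 with NO, against 0.857, 0.894 and 1.01 in the control, and the ranges overlapped (log2 fold change -0.08, 95% interval -0.34 to 0.19, adjusted p = 0.637). After 21 days Hsp70b was lower in NO-treated axes, at 0.192, 0.264 and 0.247, against 1.29, 1.31 and 1.40 in control axes. No NO-treated sample came near a control sample (log2 fold change -2.52 ± 0.13 standard error, adjusted p = 3.7e-16), and the level with NO was 0.174 of the control (95% interval 0.145 to 0.209). The NO effect at 14 days was lower than at 7 days (difference -0.91 on the log2 scale, adjusted p = 0.000112), and the effect at 21 days was lower than at 7 days (-3.36, adjusted p = 1.7e-15) and than at 14 days (-2.45, adjusted p = 1.8e-12). The effects at 7 and 21 days passed the threshold with each of 5 ways to set the reference, between 0.72 and 1.03 at 7 days and between -2.63 and -1.98 at 21 days, and also without any one of the 18 samples.

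Hsp70a differed between NO-treated and control axes after 21 days. Its levels were then 0.889, 1.14 and 1.03 with NO, against 1.77, 1.66 and 1.94 in the control. The ranges were separate (log2 fold change -0.81 ± 0.13 standard error, limma adjusted p = 3.7e-06), and the level with NO was 0.569 of the control (95% interval 0.473 to 0.684). The effect passed with each of 5 ways to set the reference and without any one sample, but its size depended on the reference: it was -0.27 (adjusted p = 0.0318) when each sample was centred on the 18 target genes, and -0.92 with Pdi alone. The cycles of Hsp70a itself lay within 0.01 of each other in NO 21d, between 24.98 and 24.99, so the spread of these 3 levels came from the reference cycles. After 7 days the levels were 0.911, 0.974 and 0.944 with NO and 1.11, 0.981 and 0.92 in the control (log2 fold change -0.09, 95% interval -0.35 to 0.18, adjusted p = 0.616). After 14 days they were 1.83, 2.38 and 2.20 with NO and 1.79, 1.91 and 1.91 in the control (log2 fold change 0.19, 95% interval -0.08 to 0.45, adjusted p = 0.259). The ranges overlapped on both days. The NO effect at 21 days was lower than at 7 days (difference -0.73, adjusted p = 0.00284) and than at 14 days (-1.0, adjusted p = 2.3e-05). The first of these lost the threshold when each sample was centred on the 18 target genes (-0.35, adjusted p = 0.0825).

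Hsp90 showed no NO effect past the threshold from the cycles against Sar1 and Pdi at any aging time. After 7 days its levels were 0.892, 0.94 and 0.767 with NO and 1.06, 0.874 and 1.08 in the control (log2 fold change -0.21, 95% interval -0.47 to 0.05, adjusted p = 0.191 from limma). After 14 days they were 1.99, 2.11 and 1.99 with NO and 1.69, 1.98 and 1.91 in the control. These ranges just missed each other, and the difference was about as large as its standard error (log2 fold change 0.13 ± 0.13, 95% interval -0.13 to 0.39, adjusted p = 0.437). After 21 days the levels were 1.39, 1.62 and 1.66 with NO and 1.38, 1.54 and 1.48 in the control, and the ranges overlapped (log2 fold change 0.08, 95% interval -0.18 to 0.34, adjusted p = 0.643). When each sample was centred on the 18 target genes instead, Hsp90 was called higher with NO at 21 days (0.62, adjusted p = 1.3e-06) and at 14 days (0.21, adjusted p = 0.0486). Centring uses the mean of these same targets, so NO effects on them enter each centred value. At 21 days centring moved the log2 fold change of Hsp90 from 0.08 to 0.62. The median log2 fold change of the 18 targets against Sar1 and Pdi was then -0.20, but centring subtracts their mean and not their median. Hsp70b (-2.52), Raptor (-2.12) and Tor (-1.79) were lowest, while Saur (0.595) and ClpB4 (0.37) were called higher. Hsp90 was also called higher at 14 days with no reference gene (0.23, adjusted p = 0.0197) and lower at 7 days with Pdi alone (-0.33, adjusted p = 0.045). Against Sar1 and Pdi, no difference of its NO effect between days passed the threshold, the largest being 0.34 between 14 and 7 days (adjusted p = 0.0924), which did pass without Control 7d replicate 2 (0.44, adjusted p = 0.0359) and with Pdi alone (0.59, adjusted p = 0.0113). When centred, its NO effect at 21 days was called higher than at 7 days (0.67, adjusted p = 8.9e-05) and than at 14 days (0.41, adjusted p = 0.00431), where Sar1 and Pdi gave -0.05 for the last (adjusted p = 0.824).

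Differences between NO-treated and control axes were common in this panel, against which the counts of the 3 members are to be read. From the cycles, 44.4% of the 18 targets were called after 7 days, 44.4% after 14 days and 55.6% after 21 days, and of the members 1, 0 and 2 were called. The groups did not overlap in 38.9% of the targets after 7 days, 55.6% after 14 days and 61.1% after 21 days, and in 1, 1 and 2 of the members. For the differences of the NO effect between days, 61.1% of the targets were called for 14 against 7 days, 27.8% for 21 against 7 days and 50% for 21 against 14 days, and 1, 2 and 2 of the members.

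**Figure D2:**
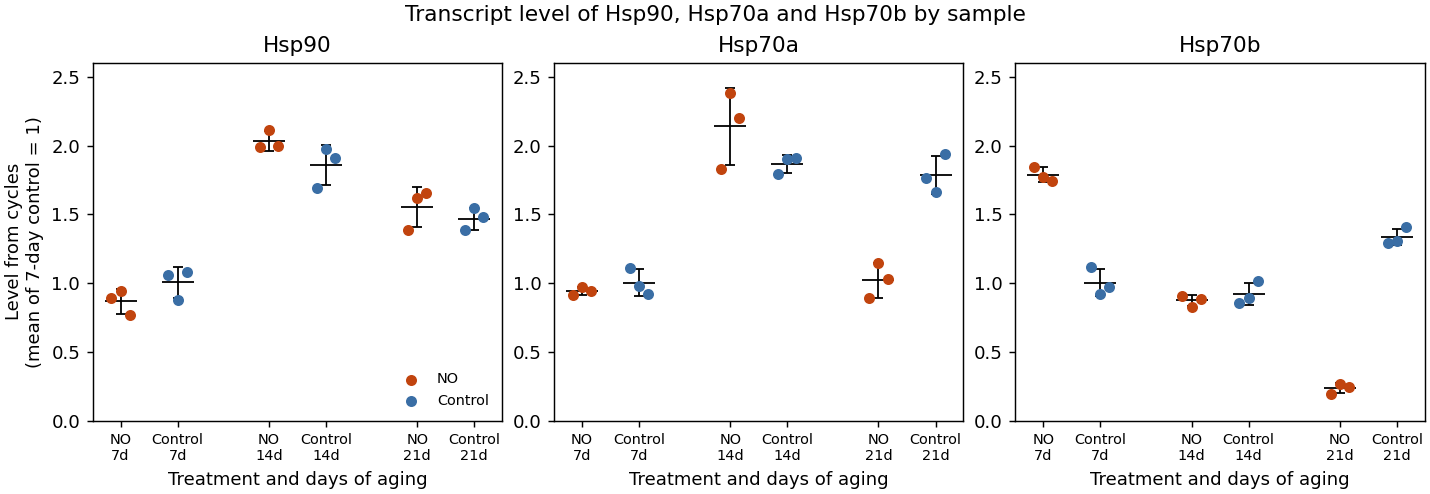
Level of Hsp90, Hsp70a and Hsp70b from the cycles (mean of Control 7d set to 1, linear axis) in each sample of the 6 groups, with the mean and SD (n = 3). Hsp70b in NO 21d lies at 0.192 to 0.264 and Hsp70a in NO 21d at 0.889 to 1.14, each below all controls of 21 days, while Hsp90 overlaps its control after 7 and 21 days.

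The deposited table of relative expression, in which the control of each aging time stands at about 1, gave another picture for Hsp70b. Its values were 1.13, 1.07 and 1.21 in NO 7d and 0.939, 1.11 and 0.958 in Control 7d. In NO 14d they were 1.06, 1.04 and 1.13, and in Control 14d 1.06, 1.01 and 0.936. In NO 21d they were 1.15, 0.89 and 0.996, against 0.971, 1.01 and 1.02 in Control 21d, where the cycles put the NO-treated axes at 0.144, 0.198 and 0.185 of the same control. On this table no NO effect on Hsp70b passed the threshold, with log2 fold changes of 0.19 after 7 days (adjusted p = 0.167), 0.11 after 14 days (adjusted p = 0.411) and 0.01 after 21 days (adjusted p = 0.939, all from limma).

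These deposited Hsp70b values were those of the normalizer. In 18 of 18 samples they equaled the geometric mean of the deposited values of Sar1 and Pdi, within a tolerance of 1e-09. They therefore hold no measurement of Hsp70b, and the log2 fold changes of the table for this gene are changes of the reference genes. A further set of deposited values, which exists for control axes only and is set to 1 at 7 days, does hold Hsp70b. In 9 of 9 control samples it equaled the values rebuilt from the Hsp70b, Sar1 and Pdi cycles with 2.01-fold amplification per cycle. For the other 17 of the 18 targets the 7-day control values were equal in both sets. The cycles are therefore the only values of Hsp70b used here for the NO effect.

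**Figure D3:**
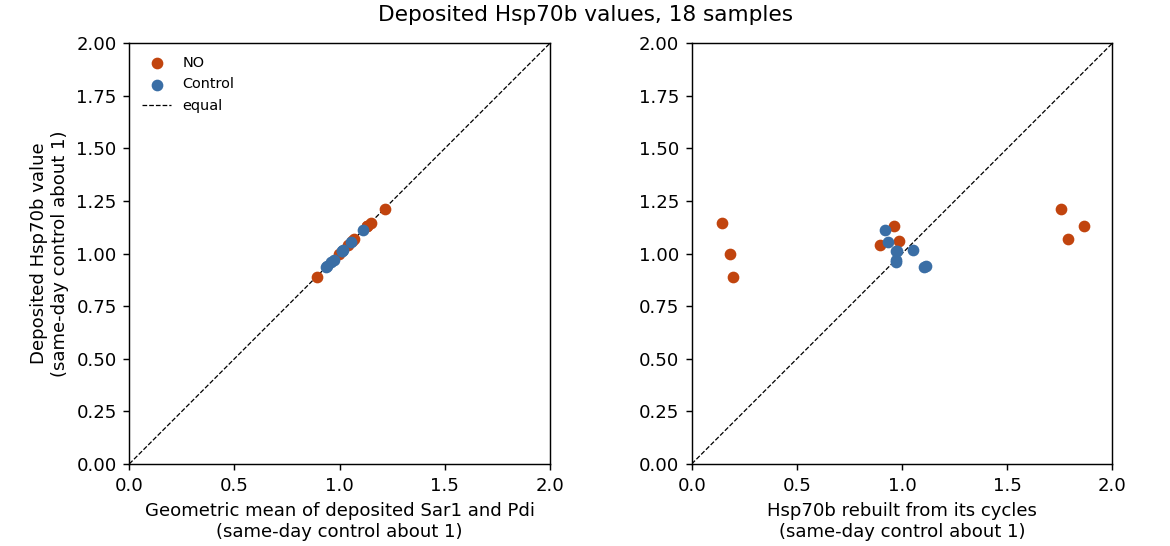
Deposited relative expression of Hsp70b in the 18 samples (same-day control about 1) against the geometric mean of the deposited Sar1 and Pdi values (left) and against Hsp70b rebuilt from its own cycles (right). The points lie on the line of equality on the left, and on the right the NO 21d samples lie at 0.143 to 0.196 rebuilt but at 0.89 to 1.15 deposited.

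For Hsp70a the deposited values and the cycles gave the same account. The deposited values equaled those rebuilt from the cycles of Hsp70a, Sar1 and Pdi in 18 of 18 samples once 1.9-fold amplification per cycle was used for Hsp70a, 2.03 for Sar1 and 1.95 for Pdi. In NO 21d they were 0.52, 0.67 and 0.603, against 0.996, 0.934 and 1.07 in Control 21d (log2 fold change -0.75 ± 0.12 standard error, limma adjusted p = 9.5e-06). After 7 days the log2 fold change was -0.09 (adjusted p = 0.467) and after 14 days 0.16 (adjusted p = 0.289). The effect at 21 days was again lower than at 7 days (difference -0.66, adjusted p = 0.00558) and than at 14 days (-0.91, adjusted p = 4.9e-05).

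For Hsp90 the 2 sources had opposite signs at 7 days, with neither past the threshold, and differed in the call at 21 days. The deposited values were 0.922, 1.12 and 1.15 in NO 7d and 0.951, 1.07 and 0.978 in Control 7d (log2 fold change 0.08, adjusted p = 0.467 from limma), where the cycles gave -0.21. In NO 14d they were 1.19, 1.15 and 1.12, against 1.01, 0.929 and 1.07 in Control 14d, with no overlap (log2 fold change 0.20, 95% interval -0.02 to 0.42, adjusted p = 0.12). In NO 21d they were 1.25, 1.25 and 1.19, against 1.05, 0.955 and 0.993 in Control 21d. This difference of 0.30 (standard error 0.11, adjusted p = 0.0227) was called, where the cycles against Sar1 and Pdi gave 0.08 (adjusted p = 0.643). The call was lost without NO 21d replicate 1 (adjusted p = 0.0561), NO 21d replicate 2 (0.0514), Control 21d replicate 2 (0.0844) or Control 21d replicate 3 (0.063), and when the fit held the samples of 21 days only (0.0819). On the deposited scale, the calls covered 33.3% of the 18 targets after 7 days, 44.4% after 14 days and 44.4% after 21 days, and the groups did not overlap in 55.6%, 44.4% and 50% of them. Differences between days in the NO effect were called there for 61.1% of the targets (14 against 7 days), 16.7% (21 against 7 days) and 50% (21 against 14 days). These deposited shares count among the 18 targets the Hsp70b values, which equal the geometric mean of Sar1 and Pdi.

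The difference lay in the normalizer. With 1.92-fold amplification per cycle, the deposited Hsp90 values give a normalizer that was shared exactly by 9 of the 18 targets, namely Hsp90, Tor, Raptor, Lea1, Lea2a, Lea2b, Lea4, Cpn60a and Cpn60b, and that is not the Sar1 and Pdi normalizer, from which it differed by a root mean square of 0.217 on the log2 scale. A further 8 targets, Hsp70a among them, followed Sar1 and Pdi. In NO 21d the normalizer of Hsp90 stood at 0.869, 0.79 and 0.939, against 0.876, 1.11 and 1.03 in Control 21d, while that of Sar1 and Pdi stood at 1.15, 0.89 and 0.996, against 0.971, 1.01 and 1.02. With the normalizer of Hsp90 applied to all members, Hsp70b kept its effects (1.14 at 7 days, adjusted p = 3.0e-07, and -2.32 at 21 days, adjusted p = 4.7e-13), and Hsp70a was lower after 21 days (-0.53, adjusted p = 0.00586). From which reference cycles this second normalizer was made is not given in the sources used here, and its values are set to about 1 within each aging time, so that it holds no course over days.

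**Figure D4:**
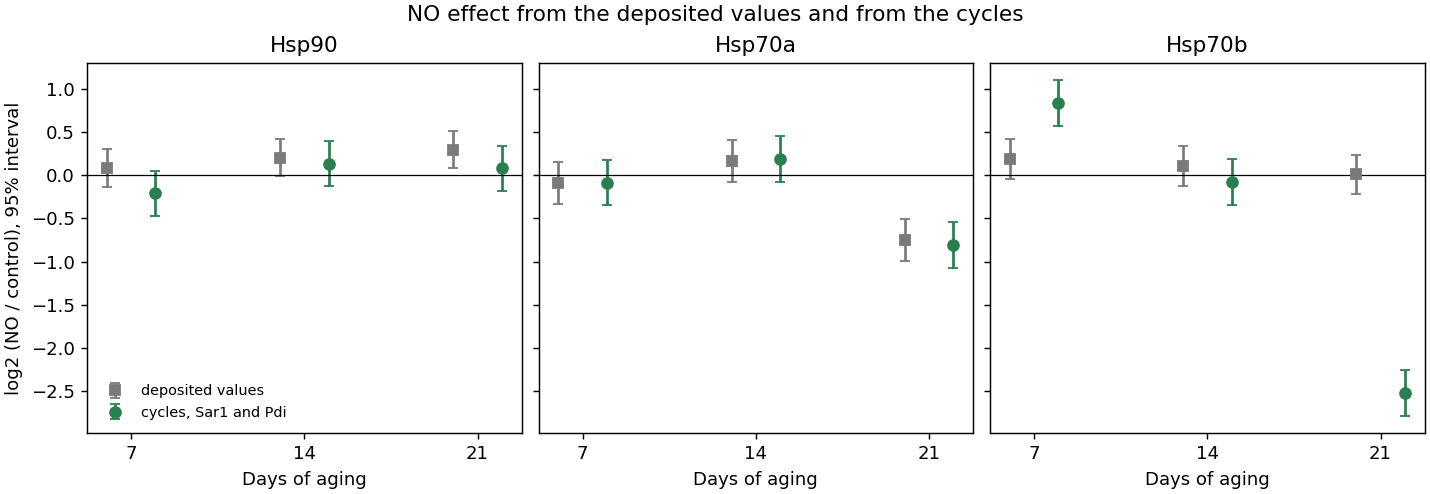
The log2 ratio of NO-treated to control axes with its 95% interval (limma) after 7, 14 and 21 days, from the deposited relative expression (grey squares) and from the cycles against Sar1 and Pdi (green circles). Hsp70a agrees between the sources, with -0.75 and -0.81 at 21 days, Hsp90 differs by 0.29 at 7 days, and the deposited Hsp70b values, which equal the normalizer, stay near 0 where the cycles give -2.52.

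The members were also set against each other within each sample, which needs no reference gene. With 3 samples against 3, the smallest two-sided p of the exact permutation test is 0.1, so no ratio could pass 0.05. Relative to the mean of Control 7d, the log2 ratio of Hsp70b over Hsp90 was 1.05, 0.92 and 1.18 in NO 7d and 0.08, 0.07 and -0.15 in Control 7d (exact p = 0.1). After 14 days it was -1.13, -1.36 and -1.17 with NO and -0.98, -1.14 and -0.91 in the control (exact p = 0.2). After 21 days it was -2.85, -2.61 and -2.75 with NO and -0.10, -0.24 and -0.07 in the control (exact p = 0.1). The ratio of Hsp70b to Hsp90 was thus separate from its control in all 3 NO samples at 7 and at 21 days, on opposite sides, by means of 1.05 and -2.60.

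Hsp70a and Hsp90 kept nearly the same ratio up to 14 days. The log2 ratio of Hsp70a over Hsp90 averaged 0.13 in NO 7d and 0.00 in Control 7d, with overlapping ranges (exact p = 0.6), and 0.07 in NO 14d and 0.01 in Control 14d (exact p = 0.7). After 21 days it was -0.64, -0.50 and -0.69 with NO, against 0.35, 0.11 and 0.39 in the control (exact p = 0.1). Hsp70b over Hsp70a differed by 0.92 at 7 days, -0.26 at 14 days and -1.71 at 21 days between NO-treated and control axes (exact p = 0.1, 0.3 and 0.1). At 21 days Hsp70b was thus separate from Hsp70a as well, although both were lower with NO.

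**Figure D5:**
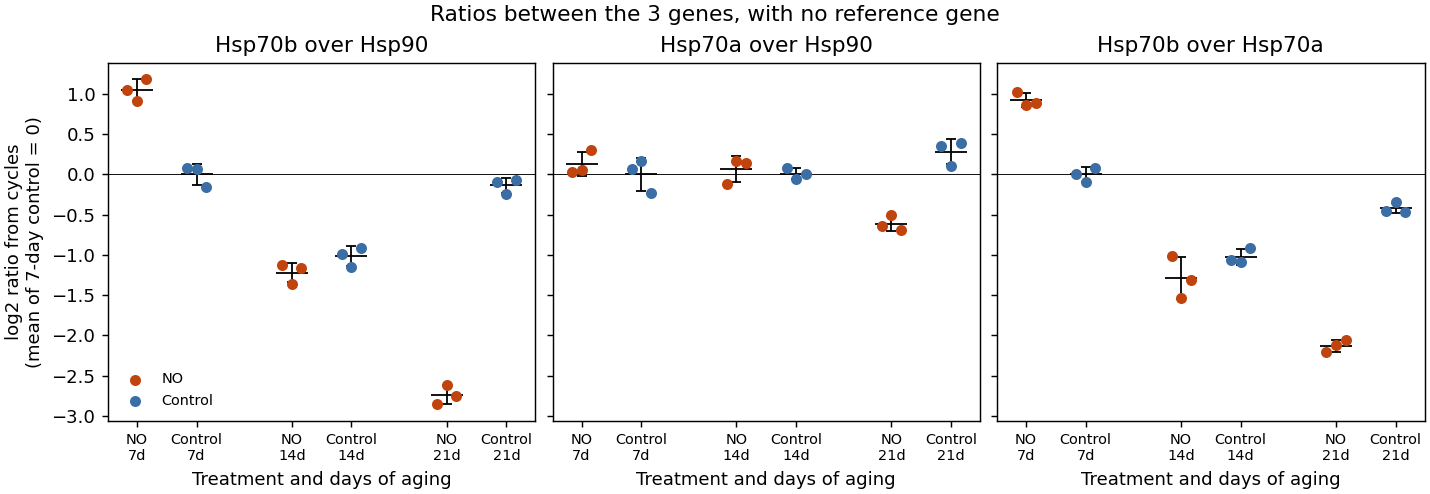
The log2 ratio between members from the cycles alone, in each sample of the 6 groups, set to 0 at the mean of Control 7d, with the mean and SD (n = 3). Hsp70b over Hsp90 in NO-treated axes averages 1.05, -1.22 and -2.74 at 7, 14 and 21 days, and in control axes 0.00, -1.01 and -0.14.

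Over the aging times, control axes had higher levels of Hsp90 and Hsp70a after 14 and 21 days than after 7 days. Hsp90 averaged 1.0 ± 0.114, 1.86 ± 0.147 and 1.47 ± 0.0806 at 7, 14 and 21 days (SD, n = 3 each). It was higher at 14 than at 7 days (log2 fold change 0.89, adjusted p = 3.8e-07 from limma) and at 21 than at 7 days (0.55, adjusted p = 0.000339), and lower at 21 than at 14 days (-0.34, adjusted p = 0.0151). The last call was lost without Control 14d replicate 2 (adjusted p = 0.0649) or Control 21d replicate 1 (adjusted p = 0.0643). Hsp70a averaged 1.0 ± 0.096, 1.87 ± 0.0663 and 1.79 ± 0.138. It was higher at 14 (0.90, adjusted p = 4.0e-07) and at 21 days (0.84, adjusted p = 2.0e-06) than at 7 days, with overlapping ranges between 14 and 21 days (-0.07, adjusted p = 0.617). Hsp70b averaged 1.0 ± 0.101, 0.922 ± 0.0821 and 1.33 ± 0.0608. It passed the threshold at 21 against 7 days (0.42, adjusted p = 0.00546) and at 21 against 14 days (0.54, adjusted p = 0.000476), but not at 14 against 7 days (-0.12, adjusted p = 0.4).

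These courses depend on the reference genes, whose own cycles moved between days. Between 7 and 14 days in control axes the mean cycle of Sar1 and Pdi rose by 0.726, with 0.596 for Sar1 and 0.856 for Pdi, while Hsp90 moved by -0.166 and Hsp70a by -0.176 cycles. Between 7 and 21 days the references rose by 0.504 (Sar1 0.18, Pdi 0.828), Hsp90 moved by -0.0489 and Hsp70a by -0.332. In the higher level of Hsp90 and Hsp70a after 14 days, the later cycle of the references thus weighed more than the members' own cycles. The change of both genes was called with 4 of 5 ways to set the reference. It lay between 0.17 and 1.22 for Hsp90 and between 0.18 and 1.23 for Hsp70a. The highest of these values came from centring on the 18 target genes, which subtracts their mean change and not their median. The median change of all 18 targets against Sar1 and Pdi was -0.04. Whether the references or the amount of template moved was not tested. Without a reference gene, Hsp90 at 14 against 7 days was 0.17 (adjusted p = 0.0618) and Hsp70a 0.18 (adjusted p = 0.114), and Hsp70b fell at 14 days (-0.85, adjusted p = 2.4e-08). Hsp70b at 21 against 7 days then turned to -0.09 (adjusted p = 0.337), and it also lost its call with Sar1 alone (0.09, adjusted p = 0.621). When centred on the 18 targets, Hsp70b at 14 against 7 days turned to a called 0.21 (adjusted p = 0.0294). Hsp90 at 21 against 7 days passed with 3 of 5 ways and lost its call with Sar1 alone (0.23, adjusted p = 0.204), with no reference gene (0.05, adjusted p = 0.585) and in the deposited 7-day-scaled values (0.05, adjusted p = 0.684). Hsp90 at 21 against 14 days likewise passed with 3 of 5 ways, and not with Pdi alone (-0.14, adjusted p = 0.316), with no reference gene (-0.12, adjusted p = 0.164) or in the 7-day-scaled values (-0.11, adjusted p = 0.324). The deposited values set to the 7-day control gave nearly the same as the cycles without a reference, with 0.16 for Hsp90, 0.16 for Hsp70a and -0.85 for Hsp70b at 14 against 7 days, since in them the references are set to average 1 within each aging time. Hsp70a at 21 against 7 days passed in every way to set the reference, between 0.33 and 1.30, and in the deposited 7-day-scaled values (0.31, adjusted p = 0.0182). Hsp70b at 21 against 14 days was higher with 4 of 5 ways and missed the threshold with Sar1 alone (0.34, adjusted p = 0.0577).

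In control axes the share of the 18 targets called was 77.8% for 14 against 7 days, 72.2% for 21 against 7 days and 88.9% for 21 against 14 days, and of the members 2, 3 and 2 were called. These counts lie near the background of the panel.

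In NO-treated axes the courses of the 3 genes parted. Hsp90 averaged 0.867 ± 0.0891, 2.03 ± 0.0716 and 1.55 ± 0.145 at 7, 14 and 21 days. It was higher at 14 (log2 fold change 1.23, adjusted p = 1.2e-09 from limma) and at 21 days (0.84, adjusted p = 7.7e-07) than at 7 days, and lower at 21 than at 14 days (-0.39, adjusted p = 0.00536). Hsp70a averaged 0.943 ± 0.0316, 2.14 ± 0.281 and 1.02 ± 0.128, higher at 14 than at 7 days (1.17, adjusted p = 4.1e-09) and lower at 21 than at 14 days (-1.07, adjusted p = 1.6e-08), with 0.11 between 21 and 7 days (adjusted p = 0.437). Hsp70b averaged 1.79 ± 0.0534, 0.873 ± 0.043 and 0.235 ± 0.0375. It fell at each step, with -1.03 at 14 against 7 days (adjusted p = 4.1e-08), -1.91 at 21 against 14 days (adjusted p = 1.2e-13) and -2.94 at 21 against 7 days (adjusted p = 3.6e-18). Of the 18 targets, 66.7%, 77.8% and 94.4% were called in NO-treated axes for 14 against 7, 21 against 7 and 21 against 14 days.

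The references moved between days in NO-treated axes too, by 0.813 cycles at 14 against 7 days and by 0.683 at 21 against 7 days. Without a reference gene, Hsp90 at 14 against 7 days was 0.42 (adjusted p = 8.8e-05) and Hsp70a 0.36 (adjusted p = 0.00325), and Hsp90 at 21 against 7 days was no longer called (0.16, adjusted p = 0.0688). Hsp90 at 21 against 14 days was called in both directions, at -0.39 against Sar1 and Pdi and at 0.21 when centred on the 18 targets (adjusted p = 0.0235). So was Hsp70a at 21 against 7 days, with -0.58 without a reference (adjusted p = 4.4e-05), 0.44 with Pdi alone (adjusted p = 0.00318) and 0.95 when centred (adjusted p = 1.3e-07). Hsp70b was lower at each step with all 5 ways, between -1.85 and -0.66 at 14 against 7 days and between -1.95 and -1.31 at 21 against 14 days.

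Ordered by level, Hsp70b ran upward through NO 21d, NO 14d, Control 14d, Control 7d, Control 21d and NO 7d, and the neighbours NO 14d, Control 14d and Control 7d overlapped in turn, while NO 21d, Control 21d and NO 7d stood apart. Hsp90 ran through NO 7d, Control 7d, Control 21d, NO 21d, Control 14d and NO 14d, in which the pair of 7 days and the pair of 21 days overlapped. Hsp70a ran through NO 7d, Control 7d, NO 21d, Control 21d, Control 14d and NO 14d, with 1 gap, between NO 21d and Control 21d.

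The targets with cycles most parallel to each member were found by the SD over the 18 samples of the difference in cycles, which needs no reference gene. Hsp90 was nearest to Hsp70a (SD 0.313 cycles) and Hsp20b, a class II small heat shock protein (0.371), and Hsp70a was nearest to Hsp90 (0.313) and Hsp20b (0.405). The reference gene Sar1 was about as near, with 0.372 for Hsp90 and 0.439 for Hsp70a, and Pdi was farther (0.606 and 0.63). Genes that move little also have a small SD, so nearness by this measure does not show a shared response. Hsp70b had no target with so small an SD. Its nearest were Lea4, a late embryogenesis abundant protein gene (0.76), and ClpB1, a disaggregase (0.845), and its SD against Hsp70a was 1.01 and against Hsp90 1.22.

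Among the 10 chaperone genes of the panel, the members did not follow 1 common course. From the cycles after 7 days, 3 of the 10 were higher with NO and 1 was lower, where 44.4% of the 18 targets were called, with a median log2 fold change of 0.01 against -0.06 over all 18 targets. Besides Hsp70b, the higher ones were ClpB4, a disaggregase of the Hsp100 family (0.55, adjusted p = 0.000689 from limma), and Hsp70c, a mitochondrial-type Hsp70 (0.70, adjusted p = 0.000117), and the lower one was Cpn60b, an organellar chaperonin (-0.71, adjusted p = 0.000221). After 14 days 3 were higher and 0 lower, again beside 44.4% of the targets (median 0.14 against -0.10), none of them a member. These were Hsp70c (3.40, adjusted p = 1.2e-18), Hsp20a, a class I small heat shock protein (1.34, adjusted p = 4.2e-09), and Cpn60a (0.57, adjusted p = 0.00144). After 21 days 1 was higher and 4 were lower, beside 55.6% of the targets (median -0.11 against -0.20). These counts lie near the background of the panel. Besides Hsp70a and Hsp70b, Hsp70c (-1.28, adjusted p = 3.9e-09) and Hsp20a (-0.51, adjusted p = 0.0042) were lower, and ClpB4 was higher (0.37, adjusted p = 0.0137). With linear values in place of log2 values, 2 of the 10 were called after 21 days, Hsp70a and Hsp70b, and the calls of Hsp70c, Hsp20a and ClpB4 were lost.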

How the data were processed

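The authors isolated total RNA from pooled embryonic axes, made cDNA and ran RT-qPCR with SYBR Green, and they deposited quantification cycles of 20 genes (another unit, neither a count nor a ratio) for 18 samples, 3 replicates in each of 6 groups. They also deposited relative expression, a linear ratio normalized to reference genes with the same-day control at about 1, and for control axes a ratio with the 7-day control at about 1. A deposited table of fold changes holds the authors' own comparisons and was not used. Columns name a group, and rows name the replicate number. Levels were computed from the cycles against the mean cycle of Sar1 and Pdi, with 2-fold amplification per cycle. Amplification bases and normalizers were recovered by setting the deposited ratios against the cycles. Group means were compared on log2 values with limma 3.58.1 in R 4.3.3 over 18 samples and 18 targets, with Benjamini-Hochberg adjustment within each comparison (0.05), and ratios between members with exact permutation tests (scipy 1.17.1), two-sided. The fit was tested on simulated data. No filter and no pseudocount were used. The members and lists were chosen with earlier results of these data known. The 3 members were always named, with the 2 targets nearest to each in cycles and the other chaperones where they passed the test. The labels number the replicates, and the methods call them biological, with 3 technical repetitions. The number of replicates limits the precision. Deviations of same-numbered NO and control samples correlated above 0.1 over targets in 4 of 9 pairs, and replicates were not paired. With 3 replicates per group this check cannot show that pairing is absent. Alternatives were other references, no moderation, a replicate block, each sample left out, the compared groups only, linear values, the methods' tests and the deposited 7-day-scaled ratios. After seeing the data, fits without the Hsp70b values, with the recovered bases and with the normalizer of Hsp90 were added.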

Additional observations from a re-analysis of the deposited data

Results flagged for a closer look

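The NO effect differed between aging times for 2 of the 3 genes, by the test of the difference itself (limma, log2 scale). From the cycles, the effect on Hsp70b was lower at 14 than at 7 days (-0.91, adjusted p = 0.000112), lower at 21 than at 7 days (-3.36, adjusted p = 1.7e-15) and lower at 21 than at 14 days (-2.45, adjusted p = 1.8e-12). The effect on Hsp70a was lower at 21 than at 7 days (-0.73 from the cycles, adjusted p = 0.00284, and -0.66 from the deposited values, adjusted p = 0.00558) and than at 14 days (-1.0 from the cycles, adjusted p = 2.3e-05, and -0.91 from the deposited values, adjusted p = 4.9e-05). From the cycles, 61.1%, 27.8% and 50% of the 18 targets passed this test for 14 against 7, 21 against 7 and 21 against 14 days. Groups of 3 samples were not screened for single samples that stand apart, but each sample was left out in turn, as given below.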

How the results depend on the processing

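Values are log2 changes. For the NO effect from the cycles, Sar1 alone turned Hsp70a at 7 days to 0.03. Pdi alone gave calls for Hsp90 at 7 days (-0.33) and Hsp70a at 14 days (0.32) and turned Hsp70b at 14 days to 0.055 and Hsp90 at 21 days to -0.029. No reference gene turned Hsp70a at 7 days to 0.11 and Hsp70b at 14 days to 0.028 and gave calls at 14 days for Hsp90 (0.23) and Hsp70a (0.29). Centring on the 18 targets turned Hsp70a at 7 days to 0.079 and Hsp70b at 14 days to 0.0011, and gave calls for Hsp90 at 14 (0.21) and 21 days (0.62). The normalizer of Hsp90, added after seeing the data, turned Hsp70a at 7 days (0.20) and Hsp70b at 14 days (0.011). For Hsp90 itself it returns the deposited result by construction, 0.082 at 7 days and a call of 0.30 at 21 days, and is no separate alternative. In the deposited values, the call of Hsp90 at 21 days (0.30) was lost with the compared groups only, and Hsp90 at 14 days passed the methods' test of 2 groups before adjustment (0.20) but not after it.

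For control axes, Sar1 alone ended the calls of Hsp90 (0.23) and Hsp70b (0.092) at 21 against 7 days and of Hsp70b at 21 against 14 days (0.34). Pdi alone turned Hsp70b at 14 against 7 days to 0.0089 and Hsp70a at 21 against 14 days to 0.13 and ended the call of Hsp90 there (-0.15). No reference gene ended the calls at 14 against 7 days of Hsp90 (0.17) and Hsp70a (0.18), at 21 against 7 days of Hsp90 (0.049) and at 21 against 14 days of Hsp90 (-0.12), called Hsp70b lower at 14 against 7 days (-0.85), and turned Hsp70b at 21 against 7 days (-0.088) and Hsp70a at 21 against 14 days (0.16). Centring turned Hsp70b at 14 against 7 days (0.21, called) and Hsp70a at 21 against 14 days (0.072). The deposited 7-day-scaled values acted like no reference gene, with 0.16 for Hsp90, 0.16 for Hsp70a and -0.85 for Hsp70b at 14 against 7 days, 0.046 for Hsp90 and -0.089 for Hsp70b at 21 against 7 days, and -0.11 for Hsp90 and 0.14 for Hsp70a at 21 against 14 days. For NO-treated axes at 21 against 7 days, Hsp70a became -0.22 with Sar1 alone, 0.44 (called) with Pdi alone, -0.58 (called) with no reference gene and 0.95 (called) when centred, and with no reference gene Hsp90 was no longer called (0.16). Hsp90 at 21 against 14 days, called lower at -0.39, turned to 0.21 (called higher) when centred.

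For differences of the NO effect between days, Hsp90 at 14 against 7 days (0.59) and Hsp70a at 14 against 7 days (0.52) were called with Pdi alone. Hsp90 at 21 against 14 days turned with Sar1 alone (0.19) and when centred (0.41, called), and at 21 against 7 days was called when centred (0.67), where Hsp70a lost its call (-0.35).

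Leaving out each sample in turn changed 5 results. The NO effect on deposited Hsp90 at 21 days ranged from 0.26 to 0.34. The deposited Hsp70b values, which equal the normalizer and hold no measurement of Hsp70b, ranged from -0.087 to 0.097 at 21 days. Hsp90 in control axes at 21 against 14 days ranged from -0.40 to -0.29. The difference of the NO effect on Hsp90 from the cycles ranged from 0.26 to 0.44 at 14 against 7 days and from -0.099 to 0.028 at 21 against 14 days. In the single-sample fits 961 values kept direction and side of the threshold and 11 did not, the deposited Hsp70b values included.

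The replicate block changed no call of the 3 members, for instance 0.30 for Hsp90 at 21 days in the deposited values (adjusted p = 0.0253) and -2.52 for Hsp70b at 21 days from the cycles. Of the 10 chaperones, it left 7 called in place of 8 in NO-treated axes at 14 against 7 days. Same-numbered samples correlated over targets between -0.70 and 0.30 from the cycles, and 4 of 9 samples matched their own number best. The number of the 10 chaperones called at 21 days was 5 from the cycles, 9 when centred, 2 with linear values and 3 with the adjusted methods' test. In the deposited values it was 5, and 3 with the adjusted methods' test, with the equal-variance test, or without NO 21d replicate 1, NO 21d replicate 2 or Control 21d replicate 2. There the 10 chaperones include the Hsp70b values that equal the normalizer. At 14 days the number called was 3 from the cycles and 5 with no reference gene. Why the calls moved was not tested.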

Other observations

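The cycles of replicate 3 had a different grain from those of replicates 1 and 2. In replicate 3 all 120 of 120 cycles of the 20 genes were whole multiples of 0.005 cycles, against 58 of 120 in replicate 1 and 58 of 120 in replicate 2. Among the 3 members and the references Sar1 and Pdi, the counts were 30 of 30 in replicate 3, 13 of 30 in replicate 1 and 13 of 30 in replicate 2. The study's methods give 3 technical repetitions. Whether the cycles of replicate 3 rest on the same number of repetitions as the others was not tested.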
